A study of Mus musculus with 4 samples.

Results

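The genes of the 4 mouse Hox clusters were examined in embryonic fibroblasts that lack FAK and in wild-type fibroblasts. Members were all genes whose symbol in the platform annotation is Hox, a cluster letter from a to d and a paralogue number. This gave 33 genes of 18194 in all, with 9 in cluster A, 9 in cluster B, 7 in cluster C and 8 in cluster D. The symbol pattern takes 39 genes in the RefSeq gene table, and those with no probe set annotated to them alone were not analysed as members. Each member was represented by its brightest probe set.

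FAK stands for focal adhesion kinase, an enzyme that relays signals from integrins where cells grip the matrix, and endothelin-1 (ET-1) is a peptide ligand of G protein-coupled receptors. There were 4 groups with 1 array each: FAK -/- cells untreated, FAK -/- cells treated with ET-1, FAK +/+ cells untreated and FAK +/+ cells treated with ET-1. All 4 were embryonic fibroblasts at passage 5 that had been deprived of serum for 24 h before a further 24 h with or without ET-1. The labels give no strain, embryonic age, body region, number of embryos or number of lines, so the genotype and the culture it was measured in cannot be told apart. No value of the FAK gene was examined, and the genotype labels were therefore not checked here.

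Hox genes encode homeodomain transcription factors that tell cells of the embryo where they lie along the head-to-tail axis and along the limb. Genes of one cluster lie in the order in which they are used, with low paralogue numbers active toward the head and high numbers toward the tail and the tip of the limb. Genes with the same number in different clusters are paralogues and can substitute for one another in part. Fibroblasts in culture are known to keep the Hox pattern of the body site they came from.

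Of the 33 Hox genes, 23 reached the level filter in at least 1 array (a log2 value above 8.90, the median of all values), and 11 of these fell and 1 rose in the knockout by limma. Over all 12290 genes that passed the same filter, 7.05% fell and 6.6% rose. The 11 genes that fell were Hoxa9, Hoxa10, Hoxa11, Hoxb5, Hoxc5, Hoxc6, Hoxc8, Hoxc9, Hoxc10, Hoxd9 and Hoxd10, with adjusted p-values from 0.00556 to 0.0382, and the gene that rose was Hoxa7. By position, 0 of 3 tested genes with paralogue numbers 1 to 3 fell, 4 of 10 with numbers 4 to 8, and 7 of 10 with numbers 9 to 13. All 7 in the last class had numbers 9 to 11, of which 8 were tested. By cluster, 3 of 6 tested genes fell in A, 1 of 6 in B, 5 of 7 in C and 2 of 4 in D. These counts by position and cluster depend on how probe sets are combined. When probe sets were averaged, the low-number gene Hoxb3 also fell (estimate -0.58, against -0.18 by its brightest), and Hoxa3 did not reach the filter. Hoxb2 fell as well, but it has 1 probe set and its estimate was -0.58 in both fits. Its limma adjusted p was 0.0654 in the fit of 12290 genes and 0.0464 in that of 10828 genes with averaged probe sets. The limma fit averages both treatment states and measures the genotype difference against the genotype by treatment term, since no group has a second array. A gene that is bright in 1 genotype alone can pass the filter through that genotype, so these counts describe the genes that passed and not the whole family. Of the 11 genes that fell, 4 had at least 1 knockout array at or below the filter, and in 3 of these both were.

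**Figure D1:**
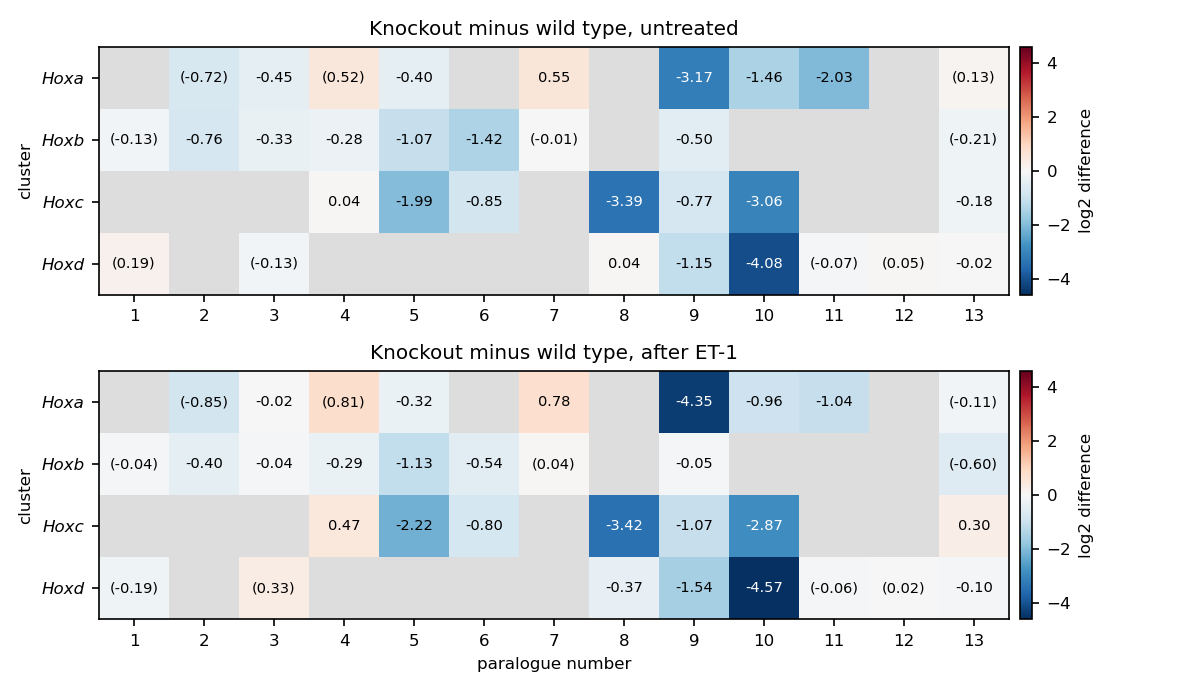
Log2 difference, knockout minus wild type, of each Hox gene in untreated cells (upper panel) and after ET-1 (lower panel), by cluster (rows) and paralogue number (columns). Grey cells hold no member and values in brackets belong to genes below the level filter; the darkest cells are Hoxd10 (-4.08 and -4.57), Hoxa9 (-3.17 and -4.35), Hoxc8 (-3.39 and -3.42) and Hoxc10 (-3.06 and -2.87).

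Hoxd10, which helps pattern the hindlimb and its motor neurons, gave the largest difference of the members. It read 6.72 and 6.32 on the log2 scale in untreated and ET-1-treated knockout cells, against 10.80 and 10.90 in untreated and ET-1-treated wild-type cells. Both knockout arrays lay below the level filter and both wild-type arrays far above it. The knockout was 17.0-fold lower without treatment and 23.8-fold lower with ET-1, folds that are uncertain at such dim knockout readings. Averaged over treatments it fell by 4.33 ± 0.16 (log2, SE; limma adjusted p = 0.00556).

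Hoxa9, a regulator of posterior axial identity and of blood progenitors, read 10.19 and 9.46 in untreated and ET-1-treated knockout cells, against 13.36 and 13.81 in wild-type cells. All values were above the filter, and both knockout arrays lay below both wild-type arrays, as they did in 29.3% of all genes tested. The knockout was 9.02-fold lower without treatment and 20.4-fold lower with ET-1, and the limma estimate was -3.76 ± 0.34 (SE, adjusted p = 0.01). Its other probe set, also above the filter, differed by only -0.50 and -0.16, and the mean of both gave an estimate of -2.05. Its neighbour Hoxa10, which acts in the lumbar skeleton and the uterus, read 9.76 and 9.65 in the knockout arrays, against 11.22 and 10.61 in wild type. The difference was -1.46 without treatment and -0.96 with ET-1, the second just under 2-fold, and the estimate was -1.21 ± 0.16 (SE, limma adjusted p = 0.0216). The other probe set of Hoxa10, below the filter, differed by -0.26 and -0.49. Hoxa11, required for the forearm bones and in the uterus, read 9.42 and 9.28 in the knockout, against 11.45 and 10.32 in wild type. Its log2 difference was -2.03 without treatment and -1.04 with ET-1, and the ET-1-treated wild-type array read lower than the untreated one. Its estimate was -1.54 ± 0.26 (SE, limma adjusted p = 0.0382), and it did not pass the test when low genes were kept or when the variance prior had no intensity trend.

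In cluster C the fall ran over a stretch of consecutive members. Hoxc8, which patterns the thoracic skeleton and the motor neurons of the forelimb, read 8.90 and 8.59 in untreated and ET-1-treated knockout cells, against 12.29 and 12.01 in wild type. The untreated knockout reading lay at the level filter and the ET-1-treated one below it, so the folds are uncertain. Both states gave nearly the same fold, 10.5 lower without treatment and 10.7 lower with ET-1, and the estimate was -3.41 ± 0.11 (SE, limma adjusted p = 0.00556). Hoxc10, a gene of the lumbar region and hindlimb, read 9.67 and 9.71 in the knockout, against 12.73 and 12.57 in wild type. It was lower 8.37-fold without treatment and 7.31-fold with ET-1 (estimate -2.97 ± 0.15, SE, limma adjusted p = 0.00568). Between them Hoxc9, which sets thoracic identity, differed less, with 9.87 and 9.52 in the knockout against 10.65 and 10.59 in wild type and an estimate of -0.92 ± 0.12 (SE, limma adjusted p = 0.0221).

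The lower-numbered genes of cluster C split. Hoxc6, whose front boundary marks the passage from neck to thorax in vertebrates, read 9.41 and 9.33 in the knockout, against 10.26 and 10.13 in wild type, and fell by 0.82 ± 0.09 (log2, SE; limma adjusted p = 0.0154). Hoxc5, a gene of the neck and upper thorax, read 8.47 and 8.35 in the knockout, both below the filter. In wild type it read 10.46 and 10.57. Its brightest probe set fell by 2.10 ± 0.11 (log2, SE; limma adjusted p = 0.00568), a value that its other probe sets did not share, as given with the probe sets. Hoxc4, at the low-number end, read 10.19 and 10.30 in the knockout, against 10.16 and 9.82 in wild type, and did not pass the test (estimate 0.26, limma adjusted p = 0.342). At the other end Hoxc13, which acts in hair and nails, read 9.27 and 9.69 in the knockout, against 9.46 and 9.39 in wild type, so that the groups overlapped (limma adjusted p = 0.844).

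In cluster D the fall covered only Hoxd9 and Hoxd10 among the 4 tested members. Hoxd9, which acts with its paralogues in the lower trunk and the limbs, read 10.88 and 10.84 in the knockout, against 12.03 and 12.38 in wild type. It was lower 2.22-fold without treatment and 2.90-fold with ET-1 (estimate -1.34 ± 0.18, SE, limma adjusted p = 0.0226). Hoxd8, the next member toward the low-number end, read 10.93 and 11.0035 in the knockout, against 10.89 and 11.38 in wild type, and its genotypes overlapped (limma adjusted p = 0.59). Hoxd13, a gene of the digits, read 9.33 and 9.26 in the knockout, against 9.36 and 9.35 in wild type, an estimate of -0.06 ± 0.09 (SE, limma adjusted p = 0.732). Hoxd11 and Hoxd12, which lie between Hoxd10 and Hoxd13, stayed below the filter in all 4 arrays, at 6.92 to 7.23, and were not tested.

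In cluster B, Hoxb5 was the member that passed the test. Hoxb5, which helps place the forelimb, read 8.38 and 8.59 in the knockout, against 9.45 and 9.72 in wild type. Both knockout arrays were below the filter, and the estimate was -1.10 ± 0.09 (SE, limma adjusted p = 0.00942). Hoxb6, a gene of the lateral plate mesoderm and ribs, was lower 2.67-fold without treatment and 1.45-fold with ET-1 (9.25 and 9.34 in the knockout, against 10.67 and 9.87 in wild type). It did not pass the test (adjusted p = 0.0807 by limma) but did with array medians subtracted. The hindbrain gene Hoxb2 had an estimate of -0.58 ± 0.13 (SE, limma adjusted p = 0.0654) and passed with probe sets averaged, with array medians subtracted and with quantile normalization. The other tested members of cluster B, Hoxb3, Hoxb4 and Hoxb9, had estimates of -0.18, -0.28 and -0.27.

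Hoxa7, which patterns the trunk vertebrae, was the 1 of 23 tested members that rose, where 6.6% of all genes tested did. It read 10.27 and 10.45 in untreated and ET-1-treated knockout cells, against 9.72 and 9.67 in wild type. Both knockout arrays lay above both wild-type arrays, as they did in 30% of all genes tested. The estimate was 0.66 ± 0.11 (log2, SE; limma adjusted p = 0.0369), 1.46-fold higher without treatment and 1.71-fold higher with ET-1. It no longer passed the test when low genes were kept or when the variance prior had no intensity trend. In the list of members Hoxa7 stands next to Hoxa9, which fell by over 3 on the log2 scale in both states. The other tested members of cluster A were Hoxa5, which acts in the lung and cervical spine (10.59 and 10.46 in the knockout, against 10.99 and 10.78 in wild type, limma adjusted p = 0.145), and Hoxa3, required for the thymus (estimate -0.24, limma adjusted p = 0.353).

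**Figure D2:**
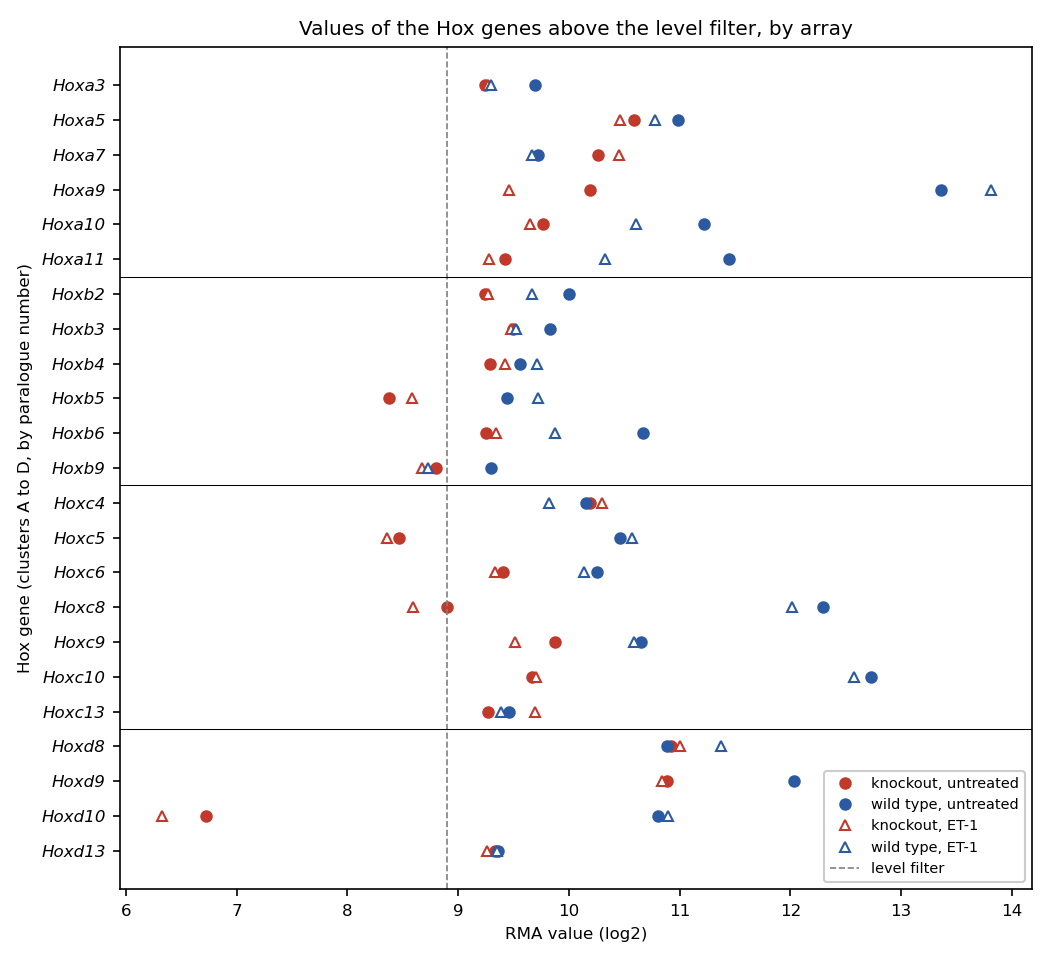
RMA values (log2) of the 23 Hox genes above the level filter (dashed line, 8.90), by cluster and paralogue number. Filled circles are untreated and open triangles ET-1-treated cells, red for knockout and blue for wild type, 1 array each. The widest gaps between red and blue are those of Hoxd10, Hoxa9, Hoxc8 and Hoxc10, and for Hoxa7 the red symbols lie to the right of the blue ones.

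The 2 treatment states were also compared singly, with no test because each group has 1 array. In untreated cells 10 of the 23 genes were at least 2-fold lower and 0 at least 2-fold higher in the knockout than in wild type, where 4.59% and 4.78% of all genes tested were. After ET-1 the counts were 9 and 0, with 6.53% and 5.61% over all genes. The genes at least 2-fold lower in both states were Hoxa9, Hoxa11, Hoxb5, Hoxc5, Hoxc8, Hoxc10, Hoxd9 and Hoxd10, that is 8 of 23, against 4% of all genes lower and 3.47% higher in both. Hoxb5, Hoxc5 and Hoxd10 passed the level filter through the wild-type arrays alone, so they could be counted only where the knockout was lower. They are among the 10, the 9 and the 8, and among the 18 that follow. In 18 of the 23 genes both knockout arrays lay below both wild-type arrays, and in 2, Hoxa7 and Hoxc4, both lay above. Over all genes tested these shares were 29.3% and 30%. Without treatment the 23 genes had a median log2 difference of -0.77, and with ET-1 one of -0.54. Over all 33 members, dim ones included, these medians were -0.40 and -0.32, and over all genes tested 0.02 and -0.03.

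Paralogues with the same number did not move alike in size. In group 9 the untreated differences were -3.17 for Hoxa9, -0.50 for Hoxb9, -0.77 for Hoxc9 and -1.15 for Hoxd9, and after ET-1 they were -4.35, -0.05, -1.07 and -1.54. The Hoxa9 values are those of its brightest probe set, and the other gave -0.50 and -0.16. All 3 members of group 10 fell, with untreated log2 differences of -1.46 for Hoxa10, -3.06 for Hoxc10 and -4.08 for Hoxd10. The Hoxa10 value is that of its brightest probe set, and the other, below the filter, gave -0.26. In group 8, Hoxc8 differed by -3.39 and Hoxd8 by 0.04. In group 13, the 2 tested members, Hoxc13 and Hoxd13, did not pass the test. These contrasts between paralogues come from different probe sets and were not tested against each other.

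The 10 members below the filter were Hoxa2, Hoxa4, Hoxa13, Hoxb1, Hoxb7, Hoxb13, Hoxd1, Hoxd3, Hoxd11 and Hoxd12. They read 6.49 to 8.31 over the 4 arrays, and their genotype differences ran from -0.85 to 0.81. The ends of that range were Hoxa2 and Hoxa4. Hoxa2, which patterns the hindbrain and the second branchial arch, differed by -0.72 untreated and -0.85 after ET-1, and Hoxa4 by 0.52 and 0.81. The other 8 genes kept within -0.60 and 0.33.

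Promoter sequence is shown for nearby genes of 1 cluster that differed in the test, the pair Hoxa9 and Hoxa7 in cluster A and the pair Hoxd10 and Hoxd8 in cluster D. Each window holds 250 bases before and 50 after the RefSeq start of the GRCm38.p6 build, on the strand of the gene: chr6:52227321-52227620 for Hoxa9 and chr6:52218524-52218823 for Hoxa7, both on the minus strand, and chr2:74691641-74691940 for Hoxd10 and chr2:74704365-74704664 for Hoxd8, both on the plus strand. Capitals mark matches, on either strand, to any of 4 short motifs.
Hoxa9: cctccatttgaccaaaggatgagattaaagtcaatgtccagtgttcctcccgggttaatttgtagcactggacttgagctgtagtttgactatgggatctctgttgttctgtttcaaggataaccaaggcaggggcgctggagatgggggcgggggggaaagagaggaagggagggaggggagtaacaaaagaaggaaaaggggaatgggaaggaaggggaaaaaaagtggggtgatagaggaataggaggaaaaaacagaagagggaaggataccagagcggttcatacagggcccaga
Hoxa7: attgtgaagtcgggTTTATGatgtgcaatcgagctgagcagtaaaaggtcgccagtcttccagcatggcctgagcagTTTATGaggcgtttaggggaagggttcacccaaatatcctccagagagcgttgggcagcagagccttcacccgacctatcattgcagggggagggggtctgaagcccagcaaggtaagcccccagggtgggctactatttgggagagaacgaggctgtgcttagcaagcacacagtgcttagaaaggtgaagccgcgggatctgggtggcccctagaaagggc
Hoxd10: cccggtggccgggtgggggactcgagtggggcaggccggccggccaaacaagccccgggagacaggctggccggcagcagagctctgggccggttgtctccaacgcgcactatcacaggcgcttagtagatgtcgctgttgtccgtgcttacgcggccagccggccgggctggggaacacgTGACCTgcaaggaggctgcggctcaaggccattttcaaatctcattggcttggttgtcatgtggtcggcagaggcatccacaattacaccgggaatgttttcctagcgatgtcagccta
Hoxd8: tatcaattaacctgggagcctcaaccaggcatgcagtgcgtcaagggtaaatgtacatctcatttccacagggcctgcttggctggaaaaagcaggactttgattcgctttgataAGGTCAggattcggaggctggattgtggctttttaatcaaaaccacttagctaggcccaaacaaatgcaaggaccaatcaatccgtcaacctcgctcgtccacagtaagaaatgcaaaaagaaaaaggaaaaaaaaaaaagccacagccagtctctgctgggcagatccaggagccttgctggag

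The motifs were AGGTCA, the half-site of retinoic acid receptors, TGATTNAT, a joint site of HOX and PBX proteins, TTTATG, a site of CDX factors, and TATAAA, the TATA box. AGGTCA stood once in the Hoxd10 window and once in that of Hoxd8, TTTATG 2 times in that of Hoxa7, and the Hoxa9 window held no match to any of them. RefSeq windows were found for 19 of the 33 members (21 windows), of which 5 were among the 11 genes that fell. AGGTCA was found in 6 of the 21 windows (28.6%), against 16.3% of all 32851 promoter windows, TTTATG in 3 (14.3%, against 11.9%), and TGATTNAT and TATAAA in 2 each (9.52%, against 3.22% and 13.6%). Among the 6 windows of genes that fell, 1 held AGGTCA and 1 held TATAAA. The base composition of the 4 printed windows differed as well, with a GC content of 49.7% for Hoxa9, 55.7% for Hoxa7, 62.7% for Hoxd10 and 46.7% for Hoxd8. The median GC content was 55.8% (49.7 to 68.3%) over the windows of genes that fell and 59.3% (45.7 to 81.0%) over those of the other members. Matches may overlap one another, both strands were searched, and a match is a string of letters that was not tested as a binding site.

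Several members have more than 1 probe set, and they did not always give the same size. The 33 members have 48 probe sets. For the 11 genes with several, 11 of the 15 further probe sets had the sign of the brightest in both treatment states. Hoxa9 differed by -3.17 and -4.35 in its brightest probe set, untreated and after ET-1, and by -0.50 and -0.16 in the other. For Hoxc5 the values were -1.99 and -2.22 in the brightest, -0.07 and 0.09 in the second and -0.11 and -0.18 in the third. For Hoxc6 all 3 were below 0 in both states, from -0.29 to -1.06 untreated and from -0.71 to -0.86 after ET-1. The opposite case was Hoxa5, whose second probe set gave -1.37 untreated against -0.40 in the brightest, and Hoxb3, whose second gave -0.86 and -1.11 against -0.33 and -0.04. When a gene's probe sets were averaged, the limma estimate was -2.05 for Hoxa9, -0.79 for Hoxa10 and -0.74 for Hoxc5. All 11 genes that fell passed the test again, Hoxa7 rose again, and Hoxb3 also fell. So did Hoxb2, which has 1 probe set and an unchanged estimate.

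**Figure D3:**
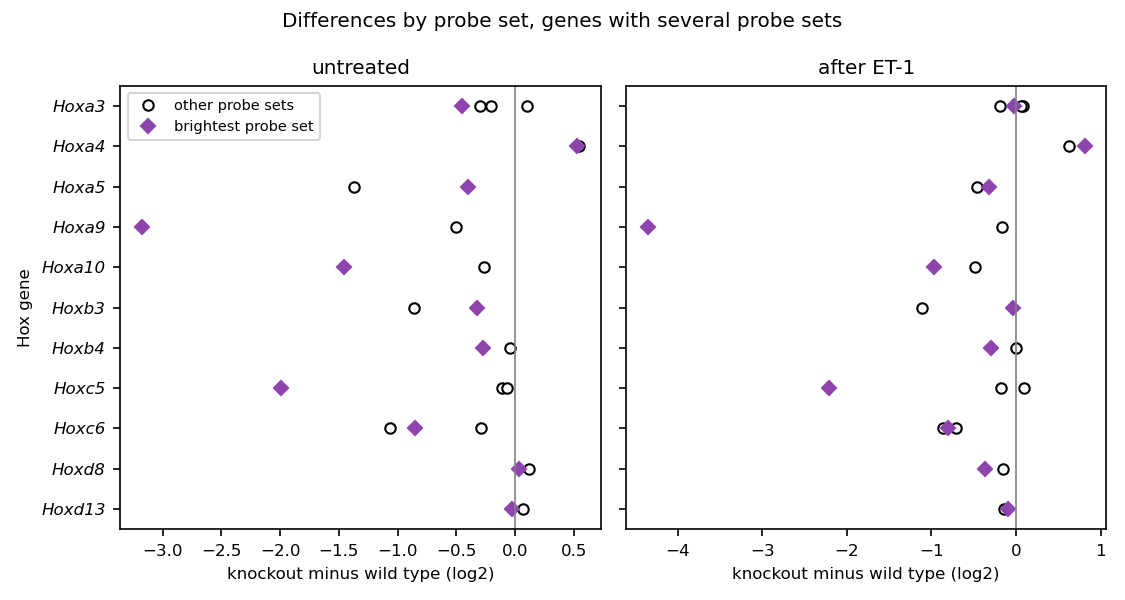
Log2 difference, knockout minus wild type, of every probe set of the 11 Hox genes with more than 1, in untreated cells (left) and after ET-1 (right). Purple diamonds are the brightest probe set and open circles the others; in Hoxa9 and Hoxc5 the diamond lies far to the left of the circles, and in Hoxb3 it lies to the right.

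Transcripts from the clusters that are not Hox proteins were followed too. The antisense transcript Hoxb5os, which lies at Hoxb5, read 9.01 and 8.83 in untreated and ET-1-treated knockout cells, against 9.95 and 10.17 in wild type, and fell by 1.14 ± 0.13 (log2, SE; limma adjusted p = 0.0171). Hoxb5 itself fell by 1.10, and whether the probe sets of overlapping transcripts share signal was not tested. Hoxa11os, the antisense partner of Hoxa11, was below the filter and differed by -0.87 untreated and -1.12 after ET-1. Hoxd3os1 differed by -0.09 untreated and 1.09 after ET-1 and did not pass the test (limma adjusted p = 0.374). The 3 probe sets that are annotated to 2 Hox genes each, 1 to Hoxb7 and Hoxb8 and 2 to Hoxd3 and Hoxd4, differed by -0.24 to -0.15 untreated and by 0.12 to 0.96 after ET-1.

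The genes beside the clusters were measured in the same way. The 5 nearest protein-coding genes with a probe set on each side of each cluster made 40 genes, 32 of them above the filter, with a median difference of 0.02 untreated and -0.05 after ET-1. By limma 1 rose and 1 fell, where 6.6% of all genes tested rose and 7.05% fell. Nfe2l3, a transcription factor of the cap'n'collar family and the fifth gene beyond the low-number end of cluster A, rose by 2.56 ± 0.10 (log2, SE; limma adjusted p = 0.00556), with 11.29 and 11.10 in the knockout against 8.76 and 8.50 in wild type. The mean of its probe sets differed by 1.18 untreated and 1.21 after ET-1. Copz2, a coatomer subunit near the low-number end of cluster B, fell by 0.66 ± 0.13 (log2, SE; limma adjusted p = 0.0486). The nearest measured genes on each side, Skap2 and Evx1 (A), Skap1 and Ttll6 (B), Smug1 and Calcoco1 (C) and Mtx2 and Evx2 (D), did not pass the test or were below the filter. Their untreated differences ran from -0.13 for Skap1 to 0.59 for Mtx2, and after ET-1 from -0.55 for Skap2 to 1.003 for Calcoco1, just over 2-fold. Calcoco1, beyond the high-number end of cluster C, had an estimate of 0.67 ± 0.20 (SE, limma adjusted p = 0.114).

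**Figure D4:**
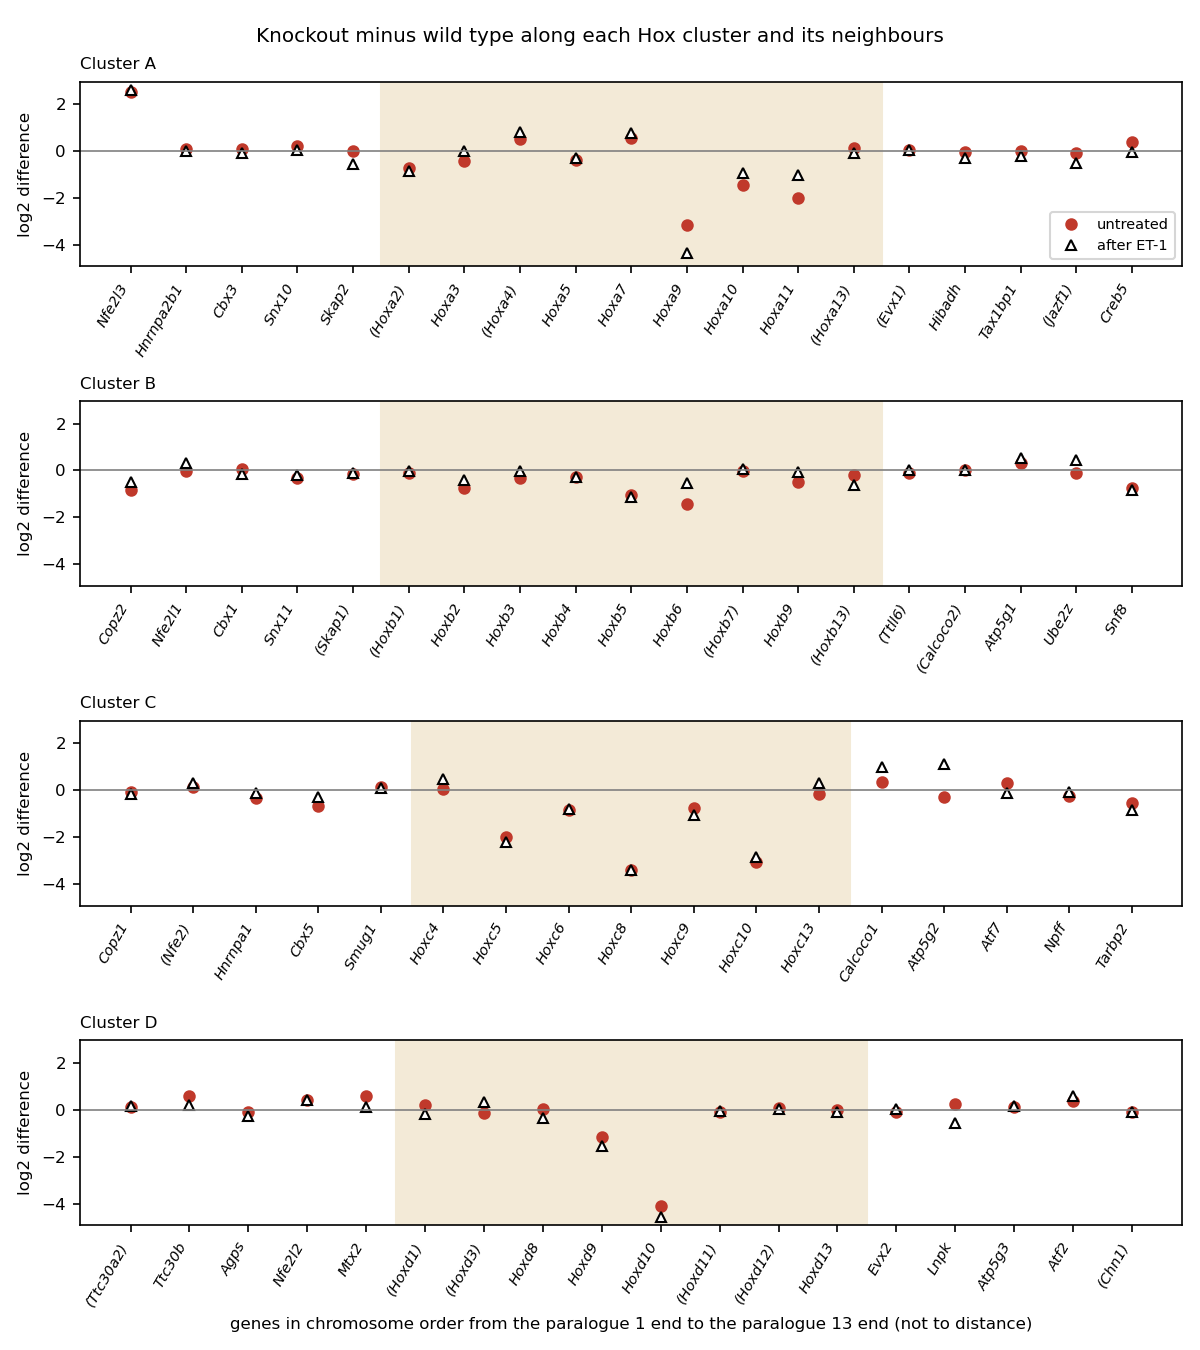
Log2 difference, knockout minus wild type, along each Hox cluster (shaded) and the 5 nearest measured protein-coding genes on each side, in chromosome order but not to distance. Red circles are untreated cells, open triangles are cells after ET-1, and names in brackets are genes below the level filter. All points at least 2-fold lower in the knockout lie inside the shaded areas. Over all genes tested 4.59% were that low untreated and 6.53% after ET-1. With shares this small, the lack of such points among 32 tested flanking genes does not mark an edge. The lowest flanking points are Copz2 untreated (-0.82) and Tarbp2 after ET-1 (-0.84). Flanking points at least 2-fold higher are those of Nfe2l3 in cluster A's flank and, after ET-1, Atp5g2 (1.12) and Calcoco1 (1.003) beside cluster C.

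Genes that act with or upstream of the clusters were followed through fixed lists, chosen with earlier results of these data known, and their counts are to be read against the 7.05% of all genes that fell and the 6.6% that rose. Among the TALE cofactors, homeodomain proteins that bind DNA together with HOX proteins, 1 of 6 tested genes fell and 0 rose. This was Pknox2, with 8.89 and 8.81 in the knockout against 9.69 and 9.85 in wild type (estimate -0.92 ± 0.11, SE, limma adjusted p = 0.0164). Its mean over probe sets was -0.33 untreated and -0.52 after ET-1, and that estimate did not pass the test. The cofactor gene Meis2 had an estimate of 0.43 ± 0.15 (SE, limma adjusted p = 0.159). Of 6 cluster regulators only Evx2 and Gdf11 were above the filter and neither passed, while Cdx1, Cdx2, Cdx4 and Evx1 were below it.

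Polycomb proteins keep silent Hox genes off, and Trithorax proteins keep active ones on. Of 25 Polycomb genes tested, 2 rose and 1 fell, shares near those of all genes tested (6.6% rose and 7.05% fell), with list medians of 0.13 untreated and 0.13 after ET-1. Jarid2, an accessory subunit of the complex that methylates histone H3 at lysine 27, read 11.83 and 12.04 in the knockout, against 10.67 and 10.66 in wild type, and rose by 1.27 ± 0.16 (log2, SE; limma adjusted p = 0.0182). Cbx2, a reader of that mark, rose by 0.88 ± 0.16 (log2, SE; limma adjusted p = 0.0415), with a mean over its probe sets of 0.44 untreated and 0.51 after ET-1. Cbx7, another reader, fell by 0.88 ± 0.09 (log2, SE; limma adjusted p = 0.0141), though by the mean of its probe sets the difference was -0.28 untreated and -0.25 after ET-1 and did not pass. The catalytic subunit gene Ezh2 had an estimate of 0.19 ± 0.12 (SE, limma adjusted p = 0.37). In the Trithorax list 0 of 11 genes passed in either direction.

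Retinoic acid, made from vitamin A, switches on low-number Hox genes in the embryo. Of 11 genes of its pathway that were tested, 2 rose and 1 fell, where 6.6% of all genes rose and 7.05% fell. Aldh1a1, an enzyme that makes retinoic acid, read 13.84 and 13.33 in untreated and ET-1-treated knockout cells, against 10.80 and 8.72 in wild type, and rose by 3.83 ± 0.42 (log2, SE; limma adjusted p = 0.015). Crabp1, which binds retinoic acid in the cytoplasm, read 8.32 and 7.20 in the knockout, against 11.61 and 11.56 in wild type, and fell by 3.82 ± 0.28 (log2, SE; limma adjusted p = 0.0077). Dhrs3, a retinaldehyde reductase, rose by 0.76 ± 0.11 (log2, SE; limma adjusted p = 0.026).

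ET-1 was set against no treatment within each genotype. In knockout cells 0 of the 23 genes were at least 2-fold lower or higher after ET-1, where 0.277% of all genes were lower and 0.236% higher, and the differences ran from -0.74 for Hoxa9 to 0.42 for Hoxc13. In wild-type cells 1 of 23, Hoxa11, was at least 2-fold lower (-1.12, 2.18-fold) and 0 were higher, against 1.17% and 0.781% of all genes, and the range was -1.12 to 0.49. The medians were -0.04 in knockout cells and -0.12 in wild-type cells. The wild-type differences rest on the ET-1-treated array in which the 3' probe set of Gapdh exceeded its 5' probe set by 3.79, as described below. Hoxb6 (-0.80) and Hoxa10 (-0.61) came next to Hoxa11 in wild type, and Hoxd8 (0.49) and Hoxa9 (0.44) were the highest. Averaged over genotypes, 0 of 12290 genes (0%) passed the test for ET-1 by limma, with 643 genes and 0 of the 23 Hox genes at an unadjusted p under 0.05. The lowest unadjusted p among the Hox genes was 0.0531. For Hoxa9 the ET-1 difference was -0.74 in knockout cells and 0.44 in wild-type cells, and with 1 array per group this difference of -1.18 between them has no test.

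Array quality and markers of cell types also differed between the arrays. The 3' probe set of Gapdh exceeded its 5' probe set by 0.85 to 0.90 in both knockout arrays and in untreated wild type, and by 3.79 in ET-1-treated wild type, the array behind the wild-type ET-1 values and the genotype difference after ET-1. For Actb this gap was 1.30 and 1.27 in untreated and ET-1-treated knockout cells, against 0.66 and 1.81 in wild type. Every limma estimate, SE and p-value also used the ET-1-treated wild-type array, because the fit takes all 4 arrays. The untreated genotype difference does not use that array, and its values for Hoxd10 (-4.08), Hoxc8 (-3.39), Hoxa9 (-3.17) and Hoxc10 (-3.06) are given above. Fibroblast markers were above the filter in 11 of 12 cases, with Lum below it. By limma 8 fell and 1 rose in the knockout, where 7.05% of all genes tested fell and 6.6% rose. Dcn was the 1 that rose (1.85), Col3a1 and Twist1 did not pass the test, and the largest falls were in Thy1 (-5.34) and Postn (-4.98). The log2 values of the 12 markers summed to 131 to 138 in the knockout arrays and 155 to 157 in wild type. Such sums of log2 values are not total RNA amounts. Msln, Upk3b, Wt1 and Lrrn4, markers of the mesothelial cells that line body cavities, summed to 54.0 to 54.7 in the knockout and 37.2 to 44.2 in wild type. By limma 3 of the 4 rose, where 6.6% of all genes did, and Upk3b did not pass the test. Epithelial markers summed to 60.8 to 63.3 in the knockout and 54.9 to 59.1 in wild type. Of 5 tested, 3 rose and 1, Krt19, fell (-2.98), against 6.6% and 7.05% of all genes. Epcam did not pass the test, and Cdh1 was below the filter in all arrays. In the endothelial list Pecam1, Cdh5 and Tek were below it too, while Kdr read 10.14 and 10.26 in the knockout, against 10.58 and 10.63 in wild type. In the blood list Ptprc, Itgam and Cd68 were below it, and Adgre1 read 9.03 and 8.99 in the knockout, against 9.14 and 9.03 in wild type. In the neural list Sox2 and Tubb3 were below it, Sox10 read 10.17 to 10.29 over the 4 arrays, and Nes read 11.47 and 11.28 in the knockout, against 12.37 and 12.05 in wild type (limma adjusted p = 0.0509). In the muscle list Myog was below it, and Myod1 and Des read 9.23 to 9.67. None of the genes of these 4 lists that were above the filter passed the test. The part of cell identity in the Hox differences was not tested, and in RNA from a whole culture fewer expressing cells and less RNA per cell cannot be told apart.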

How the data were processed

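Values came from 4 Affymetrix mouse expression arrays, 1 per group, hybridised with biotinylated RNA amplified in 2 cycles, per the labels' protocols. The authors deposited log2 values per probe set, made with RMA per the submitters' processing notes; its version and settings are not given in the sources used here. They run from 5.00 to 15.24, and differences of dim genes may be too small. Of 45101 probe sets, 34958 are annotated to 1 gene, 932 to several and 9211 to none listed. Columns of other samples numbered 0. Genes took their brightest probe set, and genes whose highest value was 8.90 or less were left out (12290 of 18194 kept). All 33 members matched the RefSeq gene table (GRCm38.p6) by Entrez identifier.

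Genotype and treatment entered limma 3.58.1 (eBayes with trend, R 4.3.3) as additive terms, with Benjamini-Hochberg adjustment over 12290 genes at 0.05. It has 1 residual degree of freedom, the genotype by treatment term, so p-values say nothing of how cultures vary, and precision is limited by the number of arrays. The fit was tested on simulated data. Single differences were counted at 2-fold or more. Tables and plots used Python 3.11.15, numpy 2.4.6, pandas 2.3.3 and matplotlib 3.10.9.

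The members, gene lists and tests were chosen with earlier results of these data known. Named are all members, up to 4 called genes of each further list, and neighbours that were called or lie nearest a cluster. Meis2, Ezh2, Evx2 and Gdf11 were added after their values were seen. Also outside this rule are Tarbp2 and Atp5g2, named as flanking points of a figure, and uncalled or dim genes of the related and marker lists. Alternatives were the mean of all probe sets, other filters, normalizations, eBayes settings and thresholds, and leaving out each array. Protein comparisons were not made.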

Additional observations from a re-analysis of the deposited data

How the results depend on the processing

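No paired analysis was possible because each group has 1 array and the labels give no replicate numbers. The count of Hox genes that fell by limma was 11, and it was 10 to 13 with the mean of all probe sets, no level filter, a stricter filter, array medians subtracted, quantile normalization, no intensity trend and robust eBayes. Of the 11 genes, 10 or 11 were shared in each case, and Hoxa11 was the one lost, without the filter and without the trend. The count that rose, 1, was 0 without the trend, and without the filter the 1 gene was Hoxa4 in place of Hoxa7. Without the filter the median difference of the Hox genes was -0.403 untreated and -0.319 after ET-1, because 10 dim genes enter. At 1.5-fold, 1 Hox gene was higher in the knockout after ET-1, against 0 at 2-fold. When probe sets were averaged, 0 TALE cofactors fell (1 by the brightest), 0 Polycomb genes fell (1), 3 rose (2) and 3 cluster neighbours fell (1). Each array left out in turn leaves no residual degree of freedom, so the genotype difference is then that of 1 state, untreated or after ET-1. All 12 called Hox genes kept their sign. A gene whose 2 states differ in sign could hardly pass the fit, so this is no further check of the calls. The 2-fold counts stayed within 1.5 times under the other alternatives run. With 1 array per group no difference has a replicate check, and values near the low end of the scale have an uncertain fold.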
